A study of Homo sapiens with 4 samples.

Results

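The splicing factor genes described here are the SR proteins (symbols starting with SRSF and a digit), the heterogeneous nuclear ribonucleoproteins (HNRNP), the subunits of splicing factors 3a and 3b (SF3A and SF3B) and the small nuclear ribonucleoprotein polypeptides (SNRP). Within these families every gene was taken by its symbol, with no measured value, which gave 54 genes of the 11972 in the table: 11 SRSF, 22 HNRNP, 9 SF3 and 12 SNRP genes. RNA came from 143B, a human osteosarcoma cell line, in 2 groups of 2 libraries: stable cells carrying plasmids that express a hairpin RNA directed at FTO (the shFTO group), and stable cells carrying control plasmids (the shCtrl group). Both groups were grown in puromycin. FTO removes the methyl group of N6-methyladenosine (m6A) from RNA. The labels give neither the hairpin sequences nor whether each line was a pool or a clone.

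Splicing removes introns in 2 chemical steps carried out by the spliceosome, a machine of small nuclear RNAs and proteins. U1 marks the start of the intron, and U2, with the SF3a and SF3b complexes, holds the branch point near its end. A ring of Sm proteins, encoded by SNRP genes, sits on most spliceosomal RNAs. SR proteins mostly promote the use of nearby splice sites, and hnRNP proteins coat nascent RNA and often repress them. Some members are linked to m6A: HNRNPA2B1 and HNRNPC bind RNAs whose binding or folding depends on the mark. The m6A reader YTHDC1 has opposite effects on RNA binding by SRSF3 and SRSF10.

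Values are FPKM, fragments per kilobase of transcript scaled to the mapped fragments of a library, so they can be compared between genes per unit of length. Differences are shFTO minus shCtrl on the log2(FPKM + 1) scale. The FPKM of all genes summed to 200555 to 212531 per library, and the number of reads behind a value is unknown. FTO itself, the check of the labels, had 0.268 and 0.242 FPKM in the shFTO libraries, against 1.14 and 0.665 FPKM in the shCtrl libraries. Both shFTO values were lower, but all 4 values were low. FTO did not reach 1 FPKM in 2 or more libraries and was therefore left out of the main fit. In the fit without this filter its difference was -0.589 (limma adjusted p = 0.313), which misses the threshold of 0.05. Of the 8 mesenchymal and osteoblast markers, 6 had values, and COL1A2 and THY1 did not. Among these 6, VIM, SPARC and CD44 had at least 26 FPKM in every library, and COL1A1, RUNX2 and ALPL had no more than 2.07 FPKM. Of the 6 epithelial markers, 3 had values (KRT18, KRT8 and EPCAM), and their summed level was lower in shFTO, at 124 to 150 FPKM, against 175 to 192 FPKM in shCtrl. CD68 was the 1 haematopoietic marker of 6 with values, at 13.4 and 25.8 FPKM in shFTO cells and 11.9 and 13.4 FPKM in shCtrl. Of the 4 endothelial markers 0 had values. Markers without values are not among the 11972 genes. Whether the shift in these markers has a part in the results was not tested. The labels do not say whether replicate libraries stem from separate cultures, and the p-values therefore cover the spread among these 4 libraries alone, which may be technical.

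Most splicing factor genes differed little between shFTO and shCtrl cells. None of the 54 passed a limma adjusted p of 0.05, against 0.0276% of the 10873 genes tested. All 54 passed the filter on low values. At an unadjusted limma p under 0.05, SRSF4 and SF3A3 were higher and HNRNPA1L2 was lower. The 2 higher genes are 3.7% of the members, against 7.11% of all genes tested, and the 1 lower gene is 1.85%, against 3.74%. The median difference of the members was -0.01, with 22 above 0 and 32 below, and the median of all genes tested was 0.02. The sign of such small differences turned on the scaling: with quantile normalization 34 members were above 0 and 20 below (median 0.04), and with median-ratio scaling 16 above and 38 below (median -0.05). The median size of the difference, without its sign, was 0.10 in the members and 0.17 in all genes tested. The members were more abundant, with a median mean level of 48.5 FPKM against 6.60 FPKM, and no matched comparison was made.

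The share of the 54 genes in the summed FPKM was 1.63% and 1.65% in the shFTO libraries, against 1.63% and 1.68% in the shCtrl libraries. The HNRNP family was the most abundant, with sums of 1609 and 1560 FPKM in shFTO cells and 1569 and 1574 FPKM in shCtrl. The SRSF sums were 389 and 383 FPKM in shFTO cells and 400 and 412 FPKM in shCtrl, and the groups did not overlap. The SF3 sums were 586 and 554 FPKM in shFTO cells and 535 and 597 FPKM in shCtrl. The SNRP sums were 885 and 807 FPKM in shFTO cells and 807 and 942 FPKM in shCtrl. In the HNRNP, SF3 and SNRP families the 2 groups overlapped.

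**Figure D1:**
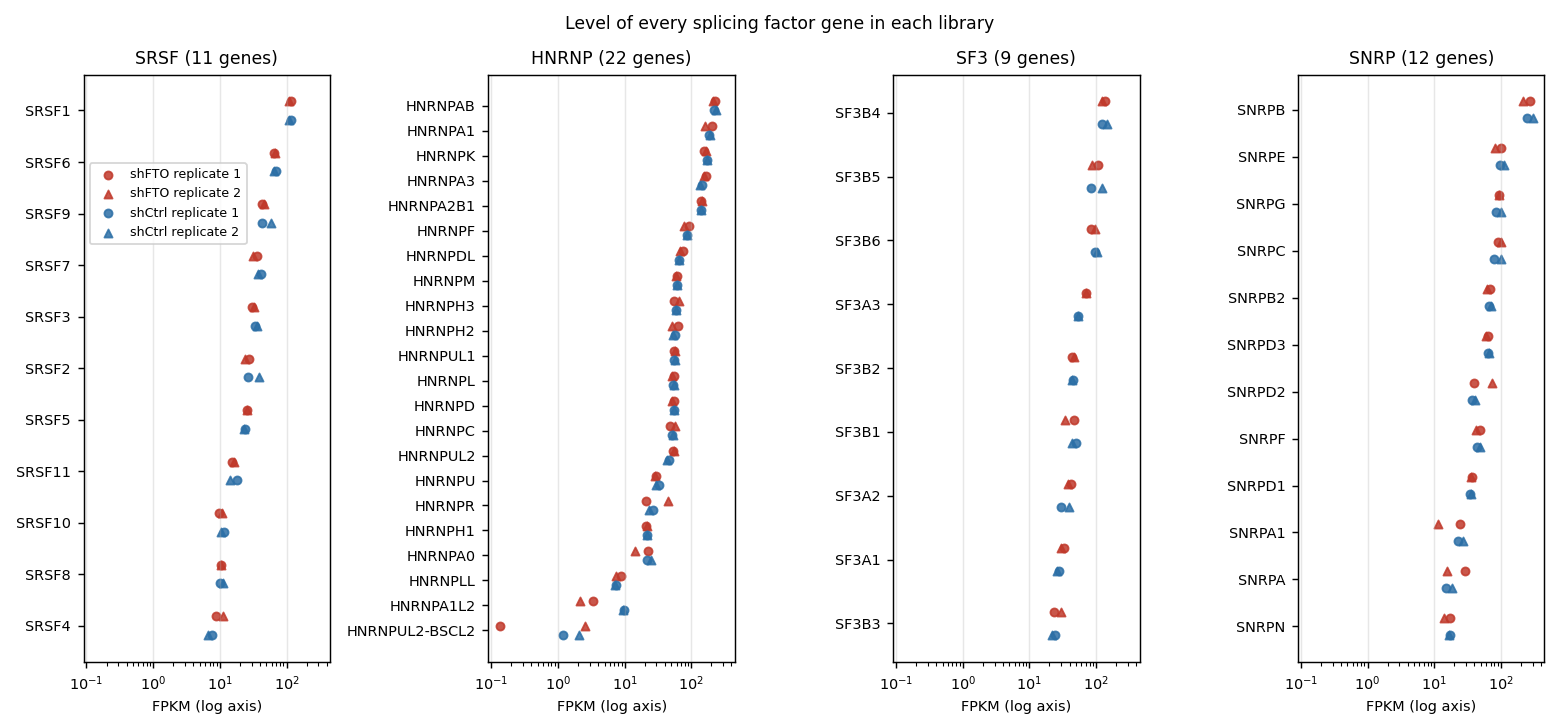
FPKM (log axis) of each of the 54 splicing factor genes, by family and ordered by mean level, with shFTO in red above shCtrl in blue and 1 point per library (circle, replicate 1; triangle, replicate 2). Levels span from 0.133 FPKM for HNRNPUL2-BSCL2 in shFTO replicate 1 to 305 FPKM for SNRPB in shCtrl replicate 2, and HNRNPA1L2 stands out by its lower shFTO values.

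Some members share sequence with other genes, which bears on how their reads can be assigned. For each member, every 100-base window of its longest protein-coding transcript (GENCODE release 29; for HNRNPUL2-BSCL2, its longest transcript of any type) was looked up in the transcripts of all other genes. In 34 of the 54 members no window was found elsewhere, and in 11 more than 10% were. The highest share was 97.5% in HNRNPUL2-BSCL2, a read-through transcript of HNRNPUL2 and BSCL2. In HNRNPUL2 the share was 44.7% and in SRSF1 56.2%, where AC015813.2 overlaps the gene on its strand. SNRPN, an imprinted gene known for its brain expression, shared 38.6% of its windows, mainly with SNURF, which overlaps it on the same strand. SNRPA1 shared 22.2% of its windows, with AL078621.1 and AC002056.1. Values of these genes are uncertain where reads could be divided.

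The member with the largest difference, HNRNPA1L2 (chromosome 13), is a near copy of HNRNPA1 (chromosome 12). Over the whole coding sequence of HNRNPA1L2 (GENCODE release 29) the genes differed at 15 of 960 bases, an identity of 98.4%. The HNRNPA1 coding sequence compared was the one closest to that of HNRNPA1L2. Of the 100-base windows of the HNRNPA1L2 transcript, 31.6% were found in other genes, and of its 50-base windows 58.5%. The 100-base windows were found in 13 other genes, among them HNRNPA1, HNRNPA1P48 and HNRNPA1P10. Of the 100-base windows of the HNRNPA1 transcript, 25.3% were found in other genes, 10 in number, HNRNPA1L2 among them.

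HNRNPA1L2, a paralog of the splicing repressor gene HNRNPA1 (chromosome 13, 53214921 to 53217931, plus strand, hg19), had the largest difference of the 54. It had 3.40 and 2.12 FPKM in the shFTO libraries, against 9.82 and 9.29 FPKM in the shCtrl libraries. Both shFTO values lay far below both shCtrl values, and in bulk RNA fewer cells with a transcript and less transcript per cell cannot be told apart. Its mean was 2.76 ± 0.905 FPKM in shFTO cells and 9.56 ± 0.369 FPKM in shCtrl cells (SD, n = 2 each), a ratio of 0.289. The difference was -1.51 (SE 0.21, 95% confidence interval -2.03 to -0.99) with a limma adjusted p of 0.124, which misses the threshold. The gene passed without shFTO replicate 1 (-1.76, limma adjusted p = 0.00445) and without shFTO replicate 2 (-1.26, limma adjusted p = 0.0179), fits that let the remaining shFTO library take its spread from the shCtrl pair. It had p = 0.0264 and q = 0.515 in the authors' deposited table.

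HNRNPA1 itself had 205 and 160 FPKM in the shFTO libraries, against 181 and 190 FPKM in the shCtrl libraries. The shFTO values lay on both sides of the shCtrl values, with a difference of -0.03 (SE 0.16). The level of HNRNPA1L2 was thus 1.66% and 1.32% of that of HNRNPA1 in the shFTO libraries, against 5.41% and 4.90% in the shCtrl libraries. No source used here says how reads were divided among HNRNPA1, HNRNPA1L2 and the other genes that share their sequence. The part of this in the difference was not tested.

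Most of the HNRNP family lay close to 0. Of its 22 genes, HNRNPA1L2 included, 10 were above and 12 below, with a median difference of -0.01 that was 0.06 with quantile normalization (17 above and 5 below) and -0.04 with median-ratio scaling (6 and 16), and 13 differed by less than 0.1 in size (59.1%, against 32.1% of all genes tested). The 4 that differed by more than 0.3 were HNRNPA1L2, HNRNPUL2-BSCL2 (-0.37), HNRNPA0 (-0.35) and HNRNPR (0.31). HNRNPA2B1, which binds m6A-marked RNA and helps in microRNA processing, had 140 and 147 FPKM in shFTO cells and 140 and 141 FPKM in shCtrl (difference 0.03, 95% confidence interval -0.28 to 0.33). HNRNPC, which binds uridine tracts, had 47.9 and 57.3 FPKM in shFTO cells and 51.0 and 52.8 FPKM in shCtrl (difference 0.01, 95% confidence interval -0.35 to 0.38). In both genes the groups overlapped, and the intervals leave room for changes of up to about 0.3 to 0.4 in either direction. HNRNPAB, the gene with the highest level of the family, had 226 and 214 FPKM in shFTO cells and 220 and 236 FPKM in shCtrl.

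In the HNRNP family 6 genes had groups that did not overlap. HNRNPUL2, a relative of the nuclear matrix protein HNRNPU, had 52.7 and 54.7 FPKM in shFTO cells and 46.7 and 42.7 FPKM in shCtrl (difference 0.26, SE 0.13, limma adjusted p = 0.538). HNRNPA3, a relative of HNRNPA1, HNRNPDL, a relative of the RNA decay factor HNRNPD, and HNRNPLL, known for its role in CD45 splicing in lymphocytes, were also above shCtrl in both libraries, by 0.20, 0.12 and 0.13. HNRNPK, which binds C-rich RNA and DNA, was below in both, by -0.10, as was HNRNPA1L2. None of these passed. Over all 54 members, both shFTO libraries lay above both shCtrl libraries in 8 genes and below in 5, together 24.1%. Among all genes tested these shares were 24.6% above and 18.1% below, 42.6% together, so the members' groups were apart in a smaller share of genes than in the table as a whole.

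Among the 11 SR protein genes 2 were above and 9 below shCtrl (4 and 7 with quantile normalization), with a median difference of -0.02. SRSF4 (chromosome 1, 29474255 to 29508499, hg19), a member with a long RS domain, had 8.90 and 11.1 FPKM in shFTO, against 7.58 and 6.56 FPKM in shCtrl. Both shFTO values were higher, with means of 9.98 ± 1.53 and 7.07 ± 0.722 FPKM (SD, n = 2 each). The difference was 0.44 (SE 0.18, 95% confidence interval 0.0048 to 0.87, limma adjusted p = 0.459). SRSF5, the other gene above shCtrl, had 25.7 and 25.1 FPKM in shFTO cells and 23.6 and 23.4 FPKM in shCtrl, a difference of 0.11 (limma adjusted p = 0.804). Its groups did not overlap, and the shift was small.

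SRSF2, also known as SC35, had 27.5 and 23.5 FPKM in shFTO, against 26.7 and 38.4 FPKM in shCtrl (difference -0.32, SE 0.21, limma adjusted p = 0.616). Its groups overlapped, and the shCtrl libraries were the more spread: the difference was -0.07 without shCtrl replicate 2 and -0.58 without shCtrl replicate 1. SRSF7 had 36.3 and 31.5 FPKM in shFTO cells and 41.8 and 37.6 FPKM in shCtrl (difference -0.22, limma adjusted p = 0.622). SRSF3, the smallest SR protein, had 30.0 and 32.7 FPKM in shFTO cells and 33.9 and 35.8 FPKM in shCtrl (difference -0.15, limma adjusted p = 0.725). In SRSF7 and SRSF3 both shFTO values were below both shCtrl values, and neither passed. SRSF10, a repressor of splicing when dephosphorylated, had 9.75 and 10.9 FPKM in shFTO cells and 11.5 and 10.3 FPKM in shCtrl, with groups that overlapped. SRSF1, the prototype of the family and its most abundant member, had 116 and 108 FPKM in shFTO cells and 115 and 111 FPKM in shCtrl. Its difference was -0.02, and 0.04 with quantile normalization. The remaining SRSF genes (SRSF6, SRSF8, SRSF9 and SRSF11) differed by -0.16 to -0.01.

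**Figure D2:**
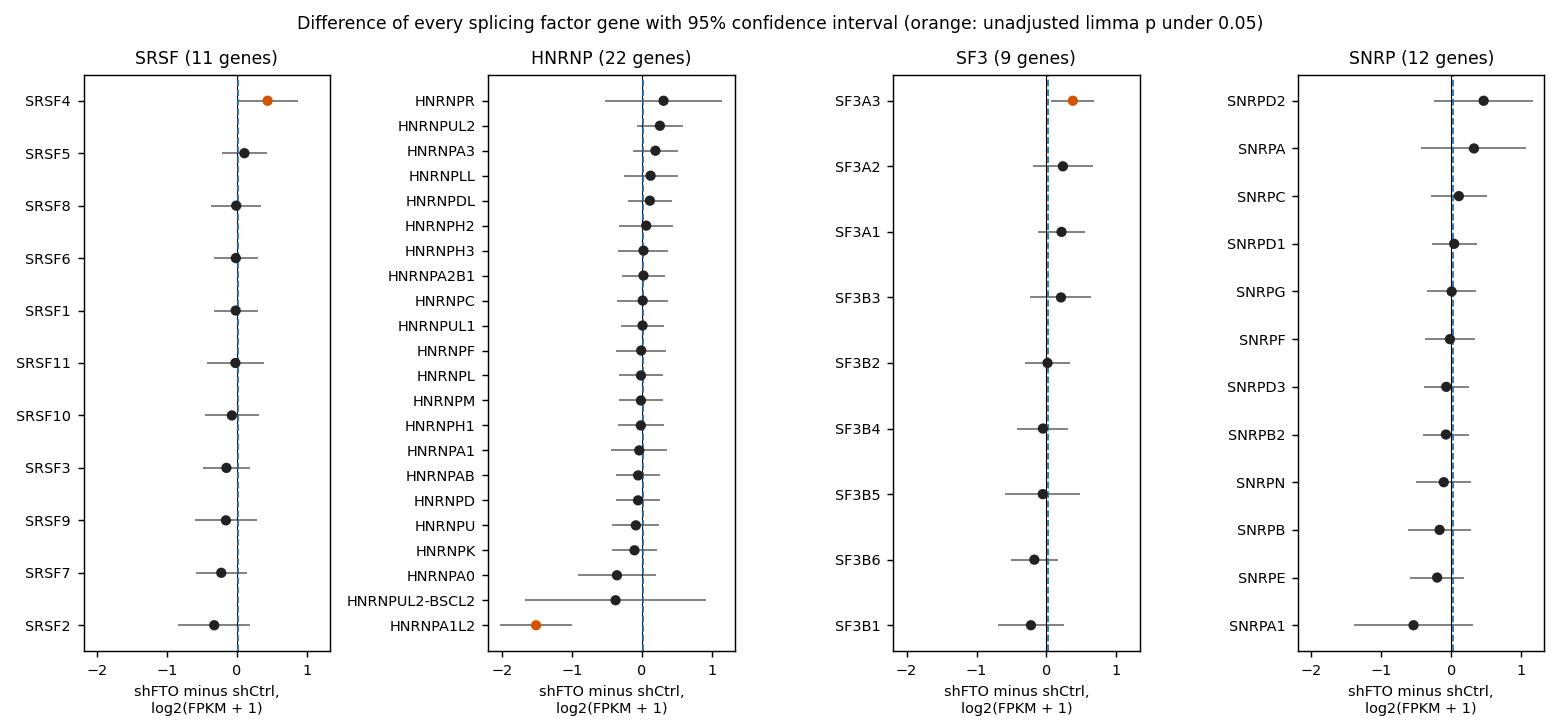
Difference between shFTO and shCtrl on the log2(FPKM + 1) scale with its 95% confidence interval from limma for each of the 54 genes, by family; the solid line is 0 and the dashed line the median of all genes tested (0.02). Most intervals span 0, and the 3 genes in orange (SRSF4, SF3A3 and HNRNPA1L2) had an unadjusted limma p under 0.05 and did not pass the adjustment.

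The 3 SF3A subunits all lay above shCtrl, also under quantile, median-ratio and equal-sum scaling. SF3A3 (chromosome 1, 38422647 to 38456593, minus strand, hg19), which together with SF3A1 and SF3A2 forms SF3a, had 70.1 and 70.1 FPKM in the shFTO libraries, against 53.9 and 53.6 FPKM in the shCtrl libraries. The replicates were almost equal within each group, and shFTO was 30.5% higher. The difference was 0.38 (SE 0.12, 95% confidence interval 0.07 to 0.69), with a limma adjusted p of 0.389. The limma test shares its estimate of spread with genes of like level, and in the authors' deposited table the gene had p = 0.000115 and q = 0.348. SF3A1 had 32.7 and 29.7 FPKM in shFTO cells and 27.7 and 25.7 FPKM in shCtrl (difference 0.22, limma adjusted p = 0.617). SF3A2 had 41.9 and 38 FPKM in shFTO cells and 29.4 and 38.7 FPKM in shCtrl (difference 0.24, limma adjusted p = 0.664), with groups that overlapped. Its difference was 0.04 without shCtrl replicate 1 and 0.43 without shCtrl replicate 2. Summed over the 3 genes, SF3a reached 145 and 138 FPKM in shFTO cells and 111 and 118 FPKM in shCtrl, and 1 of the 3 had an unadjusted p under 0.05.

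The 6 SF3B genes gave no common direction, with differences of -0.22 to 0.21, and 0 had an unadjusted limma p under 0.05. SF3B1, which contacts the branch point and is often mutated in blood cancers, had 46.1 and 33.8 FPKM in shFTO cells and 49.9 and 42.9 FPKM in shCtrl (difference -0.22, limma adjusted p = 0.713). With only shFTO replicate 2 kept in the shFTO group that difference was -0.44, and with only shFTO replicate 1 kept it was -0.0031. SF3B6, a small protein at the branch point, had 83.9 and 95.4 FPKM in shFTO cells and 97.6 and 105 FPKM in shCtrl, below in both libraries (difference -0.17, limma adjusted p = 0.687). SF3B4, the most abundant of the family, had 137 and 123 FPKM in shFTO cells and 124 and 145 FPKM in shCtrl. Levels differed between subunits far more than between groups, with means over all libraries of 24.7 FPKM for SF3B3 and 132 FPKM for SF3B4.

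None of the 12 SNRP genes had an unadjusted limma p under 0.05, and none had groups that were apart. Among all genes tested 7.11% were higher and 3.74% lower at that p, and 42.6% had groups that were apart. The 7 genes of the Sm ring spanned mean levels of 35.6 FPKM for SNRPD1 to 260 FPKM for SNRPB, although the ring holds its subunits in equal number. SNRPB had 272 and 218 FPKM in shFTO cells and 245 and 305 FPKM in shCtrl. Of the other Sm genes, SNRPE had 99.3 and 82.6 FPKM in shFTO cells and 97.7 and 111 FPKM in shCtrl (difference -0.20, limma adjusted p = 0.678). SNRPG, SNRPF and SNRPD1 differed by 0.01, -0.02 and 0.04.

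In the SNRP genes with the largest differences the 2 shFTO libraries disagreed with each other. SNRPD2, an Sm ring gene, had 39.4 and 72.4 FPKM in shFTO, against 36.4 and 40.7 FPKM in shCtrl (difference 0.46, SE 0.29, limma adjusted p = 0.606). Without shFTO replicate 1 the difference was 0.89 and passed (limma adjusted p = 0.0282), and without shFTO replicate 2 it was 0.03 (limma adjusted p = 0.962). SNRPA, which encodes the A protein of U1, had 29 and 15.4 FPKM in shFTO cells and 14.9 and 18.6 FPKM in shCtrl (difference 0.33, limma adjusted p = 0.732), and its difference turned to -0.11 without shFTO replicate 1. It reached 0.76 without shFTO replicate 2. SNRPA1, which encodes a protein of U2, had 24.7 and 11.5 FPKM in shFTO cells and 22.8 and 27.4 FPKM in shCtrl (difference -0.54, limma adjusted p = 0.614). It passed without shFTO replicate 1, at -1.06 (limma adjusted p = 0.0231), and was at -0.02 without shFTO replicate 2 (limma adjusted p = 0.986). In each of these genes 1 shFTO library lay near the shCtrl values and the other apart from them. The fits without an shFTO library took the spread within a group from the shCtrl pair. Their p-values therefore do not cover the spread between the shFTO libraries.

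HNRNPR, a relative of SYNCRIP that binds RNA, showed the same kind of spread, with 21.3 and 44.7 FPKM in shFTO cells and 26.5 and 22.9 FPKM in shCtrl (difference 0.31, SE 0.34, limma adjusted p = 0.772). On leaving out shFTO replicate 1 the difference became 0.83 and passed (limma adjusted p = 0.043), and on leaving out shFTO replicate 2 it became -0.21. The read-through gene HNRNPUL2-BSCL2 had 0.133 and 2.55 FPKM in shFTO cells and 1.19 and 2.09 FPKM in shCtrl. Its difference of -0.37 became 0.45 on leaving out shFTO replicate 1, and -1.20, past the threshold, on leaving out shFTO replicate 2 (limma adjusted p = 0.0445). With a pseudocount of 0.1 it was -1.09. Here too the fits without an shFTO library took the spread within a group from the shCtrl pair, and their p-values leave out the spread between the shFTO libraries. The number of members that passed was thus 4 without shFTO replicate 1 (HNRNPA1L2, HNRNPR, SNRPA1 and SNRPD2), 2 without shFTO replicate 2 (HNRNPA1L2 and HNRNPUL2-BSCL2) and 0 without either shCtrl library. These are 7.41% and 3.7% of the members, and the same fits called 3.95% and 2% of all genes tested.

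**Figure D3:**
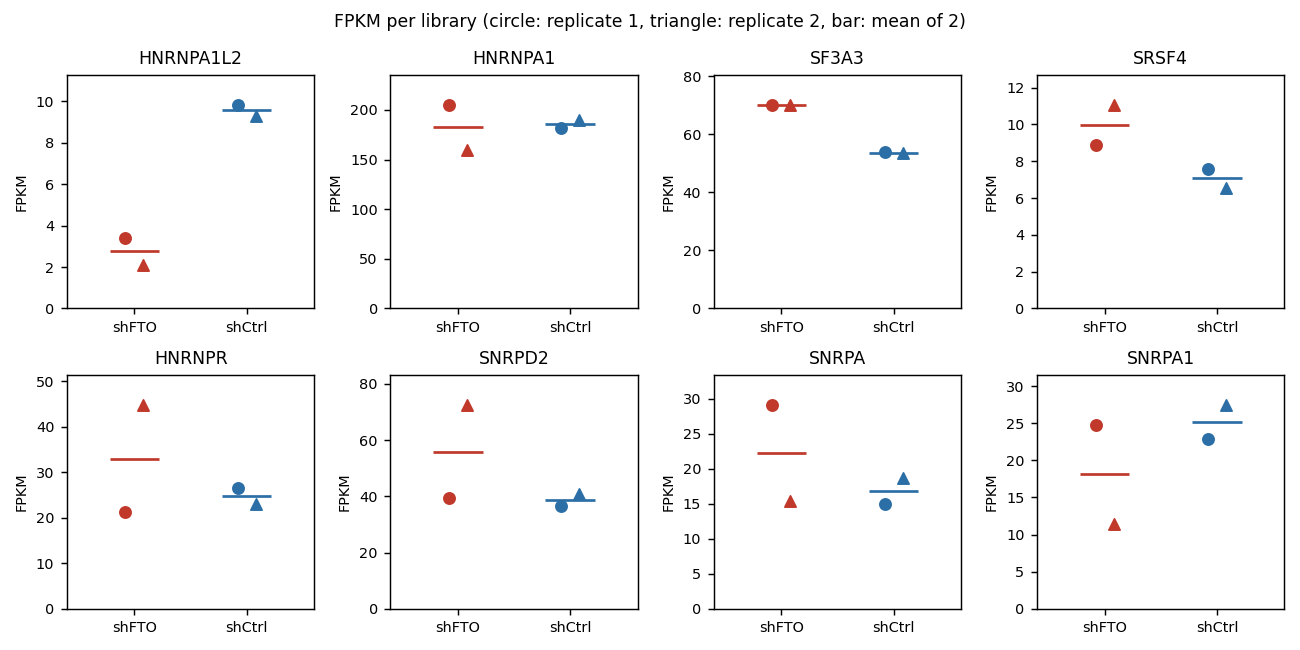
FPKM in each library (linear axes from 0; circle, replicate 1; triangle, replicate 2; bar, mean of 2) for 8 members, with shFTO left of shCtrl. The upper row holds HNRNPA1L2, SF3A3 and SRSF4, whose groups do not overlap, and HNRNPA1, whose groups do; the lower row holds HNRNPR, SNRPD2, SNRPA and SNRPA1, whose shFTO libraries differ from each other.

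The gap between the 2 libraries of a group was therefore described for every member. Its median on the log2 scale was 0.15 in shFTO and 0.10 in shCtrl for the members, against 0.21 and 0.15 for all genes tested. The shFTO gap was the larger in 37 of 54 members (68.5%) and in 60.6% of all genes tested. It exceeded 0.5 in 6 members (11.1%, against 15.9% of all genes tested), and the shCtrl gap in 2 members, SRSF2 and SF3B5 (3.7%, against 6.16%). The 6 were HNRNPUL2-BSCL2, SNRPA1, HNRNPR, SNRPA, SNRPD2 and HNRNPA0, and shFTO replicate 2 was the higher library in HNRNPUL2-BSCL2, HNRNPR and SNRPD2 and the lower in the other three.

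In the HNRNP family the median gap was 0.11 in shFTO and 0.04 in shCtrl, whose libraries lay close together. In 18 of its 22 genes the shFTO gap was the larger (81.8%). In 11 of the 22 (50%) the shFTO libraries lay on both sides of the 2 shCtrl libraries, which was so for 27.8% of all members and 18.1% of all genes tested. HNRNPF, which binds G-runs, is an example, with 92.7 and 77.6 FPKM in shFTO cells and 85.3 and 85.1 FPKM in shCtrl. Its mean differed by -0.01 between groups. The SRSF family went the other way, with a median gap of 0.10 in shFTO and 0.15 in shCtrl. Whether families differ in spread was not tested.

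**Figure D4:**
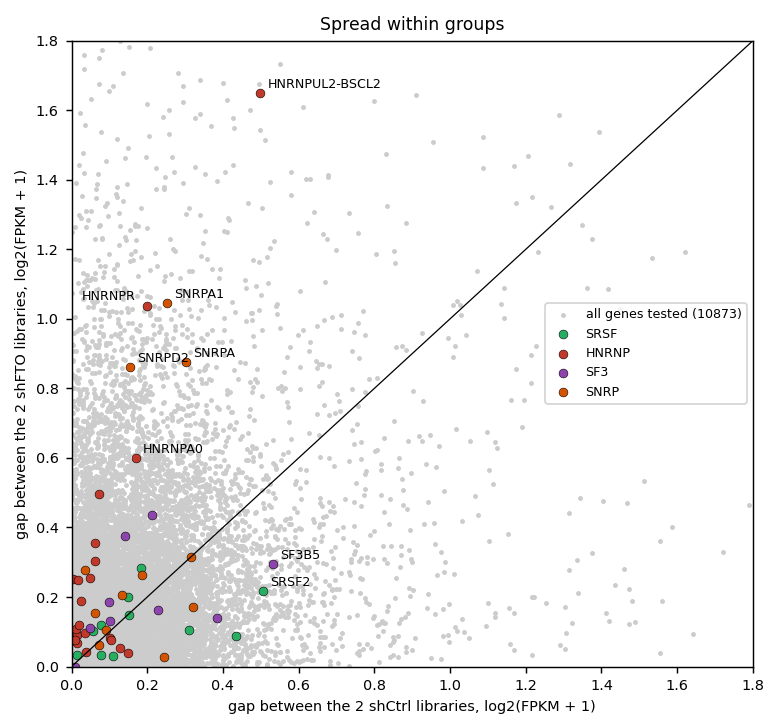
Gap between the 2 shFTO libraries (vertical) against the gap between the 2 shCtrl libraries (horizontal), both on the log2(FPKM + 1) scale, for the 54 members by family over all 10873 genes tested in grey; 64 genes lie beyond the axes. Points above the diagonal have the larger gap in shFTO, as 37 of the 54 members do, and members with a gap over 0.5 in either group are named.

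The transcripts of the members were described from GENCODE by gene ID, with a protein-coding transcript for 53 of 54. Their median length was 2885 bases, against 3418 bases for all genes tested, and their median GC content was 44.6%, against 48.4%. The SNRP transcripts were the shortest family, with a median of 1272 bases. The core GGACT, 1 of the sequences in which m6A is commonly found, was counted on the transcript strand. At least 1 copy was present in 88.7% of member transcripts and 92.2% of those of all genes tested, with medians of 0.900 and 0.921 copies per kilobase. HNRNPA1L2 held 2 copies, SF3A3 5 and SRSF4 1, whereas HNRNPA2B1 held 0. A match is a string of letters and not a measured m6A site.

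Other genes of the splicing pathway were then read from lists made by function, which held 120 genes. Of these 117 were tested and 0 passed over all genes tested (limma), with 3 higher and 3 lower at an unadjusted p under 0.05. That is 2.56% in each direction, against 7.11% of all genes tested higher and 3.74% lower. The strongest differences were in the list of 3′ splice site and U2 recruitment factors. CHERP, a protein associated with U2, had 13.9 and 14.1 FPKM in shFTO, against 6.69 and 7.02 FPKM in shCtrl (difference 0.93, SE 0.14, limma adjusted p = 0.152). U2SURP, which associates with CHERP, had 16.2 and 21.3 FPKM in shFTO, against 32.1 and 32.4 FPKM in shCtrl (difference -0.76, SE 0.17, limma adjusted p = 0.263). The groups were apart in both genes, in opposite directions, and the median of the 12 genes on the list was 0.01.

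Lists of assembly and catalytic factors lay lower. Of the 15 genes of the SMN complex and Sm ring assembly, 12 were below shCtrl, with a median of -0.15, and 0 had an unadjusted p under 0.05. Among all 10873 genes tested 5023 were below. Both shFTO libraries were below both shCtrl libraries in 8 of the 15, a position held by 18.1% of all genes tested. SMN1 (-0.12) and SMN2 (-0.21) count as separate genes here, and shared sequence was not examined for the lists. Of the 19 genes of the Prp19 complex and the catalytic steps 13 were below, with a median of -0.14, and 0 had an unadjusted p under 0.05. The 27 other snRNP proteins had a median of -0.06, the 18 SR-related proteins and SR kinases 0.03 and the 26 other regulators of alternative splicing 0.02 (the last 2 below 0 with median-ratio scaling), all beside 0.02 for all genes tested. These lists are described by counts and medians alone, and nothing particular to a list was tested.

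**Figure D5:**
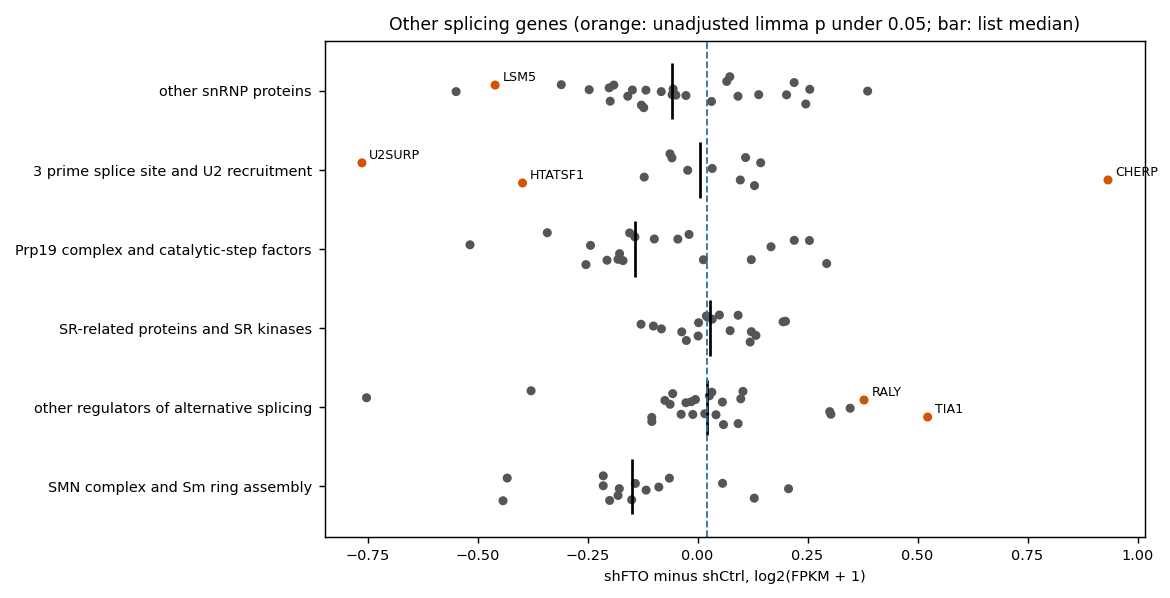
Difference between shFTO and shCtrl on the log2(FPKM + 1) scale for the 117 tested genes of 6 other splicing lists, 1 point per gene; black bars are list medians and the dashed line the median of all genes tested (0.02). CHERP at 0.93 and U2SURP at -0.76 lie farthest out among the named genes, which have an unadjusted limma p under 0.05, and the SMN and Prp19 lists are centred below 0.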

How the data were processed

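Libraries were made from oligo(dT)-enriched RNA with dUTP in the second strand and read on an Illumina instrument, per the labels' protocols. For the upstream steps the submitters' processing notes list the tools cutadapt, StringTie, HISAT2 2.0.5 and STAR 2.5.2b and the build hg19, without roles, and say nothing on strand. FPKM values, 1 per gene and library, were deposited by the authors. The authors' deposited group columns and fold change are log2 means of FPKM + 1 and their difference, with the fold as a ratio, and their p-value and q-value came with the table.

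Here limma 3.58.1 (R 4.3.3) was fitted to log2(FPKM + 1), so the pseudocount was 1, with a variance trend and without a block, over the 10873 genes that reached 1 FPKM in 2 or more libraries. Benjamini-Hochberg adjustment covered all of these, with a threshold of 0.05. With 2 libraries against 2, the smallest exact two-sided permutation p for a gene is 0.333. The fit was tested on simulated data. No pair of libraries held identical values above 0.

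The families that define the members, and the lists, were picked with earlier results of these data known. Named genes are those with an unadjusted p under 0.05, the 2 highest and 2 lowest differences and the most abundant gene of each family, 4 m6A-linked genes, and in the other lists genes with an unadjusted p under 0.01. Others were named after their values were seen. Coordinates are hg19. Alternatives covered the pseudocount, filter, scaling, variance model, replicate block, overlapping genes and leaving out each library. The sequences of 2 members are not reported here.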

Additional observations from a re-analysis of the deposited data

How the results depend on the processing

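Of 332 values of 24 named genes under 14 alternatives, 6 passed the threshold, all on leaving out an shFTO library, and 18 changed sign. With quantile normalization the sign changed for SRSF1 (0.0399), HNRNPAB (0.0298) and SF3B4 (0.0366), and with median-ratio scaling for HNRNPA2B1 (-0.0112) and HNRNPC (-0.0218). When 1 library was left out, differences ran from -1.1974 to 0.4511 for HNRNPUL2-BSCL2, -0.2056 to 0.8318 for HNRNPR, -0.1128 to 0.7633 for SNRPA, -0.0684 to 0.0348 for SRSF1, -0.1025 to 0.0011 for HNRNPAB, -0.1646 to 0.0634 for SF3B4, -0.0118 to 0.0634 for HNRNPA2B1, -0.112 to 0.1416 for HNRNPC and -0.1476 to 0.0041 for SRSF10. Without a change of sign they ran from -0.323 to -0.1238 for SRSF7, -0.21 to -0.0895 for SRSF3, -0.2653 to -0.081 for SF3B6 and -0.333 to -0.0696 for SNRPE. Over all genes 3 passed in the main fit (limma), 0 with a pseudocount of 0.1, and 1 each without a filter, with median-ratio scaling, without a variance trend and without overlapping genes. Leaving out a library gave 0 to 429 (429 without shFTO replicate 1, 217 without shFTO replicate 2, 0 without either shCtrl library). Same-numbered libraries deviated weakly in opposite ways (r = -0.192 across genes). With 2 libraries per group this value cannot show whether libraries of the same number were prepared together, and the labels do not say. A replicate block gave 15 calls and 0 members, and 0 members higher at an unadjusted p under 0.05. A block with crossed numbers, added after seeing the data, gave 0 calls.

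Members past the threshold ranged from 0 to 4 when a library was left out. At an unadjusted p under 0.05, 2 were higher and 1 lower. The higher count was 1 with median-ratio scaling and with equal sums, and 0 to 4 when a library was left out, and the lower count was 1 to 4. The median of the members (-0.0134) was 0.0383 with quantile normalization, -0.0496 with median-ratio scaling and -0.046 to 0.004 when a library was left out. That of the SRSF family was -0.056 with median-ratio scaling and -0.0731 to 0.0041 by library, that of the HNRNP family 0.0589 with quantile normalization and -0.0449 with median-ratio scaling, and that of the SF3 family 0.083 with quantile normalization, -0.0211 with median-ratio scaling (0.0153 as reported) and 0.0302 to 0.1374 by library. That of the SNRP family (-0.045) was 0.0199 with quantile normalization and -0.1226 to 0.0211 by library.

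Other lists moved likewise. The other snRNP proteins were at -0.093 with median-ratio scaling and -0.0772 to -0.0075 by library. The 3′ splice site list was at -0.0404 with a mean of at least 5 FPKM or without overlapping genes, and -0.0544 to 0.065 by library. The Prp19 list was at -0.1142 with quantile normalization, -0.1782 with median-ratio scaling, -0.1204 without overlapping genes and -0.1263 to -0.071 by library. The SMN list was at -0.1573 with a pseudocount of 0.1, -0.1639 with a mean of at least 5 FPKM or without overlapping genes, -0.1863 with median-ratio scaling and -0.1682 to -0.1237 by library. The causes of these shifts were not tested. The depth is unknown, so no counting error is given, and each spread rests on 2 libraries per group.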
